A study of Mus musculus with 4 samples.

Results

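Retnla, Chil3, Chil4, Ear2, Rnase2a and Alox15 were followed in macrophages sorted from mouse tumours. These 6 genes, of 39179 gene identifiers in the count files, are genes of IL-4-type macrophages or of eosinophils, chosen by their levels in these same libraries: their counts were high mainly in 1 of the 4, replicate 2 of the MycCaP-BMP4 group. The choice had no numeric limit. For this reason the levels are given as a description, with no p for the 6 genes. The filter on low counts kept 5 of the 6 genes, and Chil4 fell under it.

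The tumours grew under the skin of FVB mice from MycCaP-BMP4 cells, which overexpress the secreted bone morphogenetic protein BMP4, or from parental MycCaP cells, a mouse prostate cancer line made from a tumour with a MYC transgene. Tumour-associated macrophages were sorted by flow cytometry as cells positive for CD45, CD11b and F4/80 and negative for GR1, and their polyadenylated RNA was sequenced from 2 libraries per group. The labels give no age, sex or number of mice, and do not say whether the BMP4 cells are 1 clone or whether the replicates came from separate mice, so the spread between replicates may be technical. F4/80 appears in the titles of the MycCaP-BMP4 samples alone, although the labelled cell type does not differ between the groups, so whether 1 gate served both groups cannot be told from the labels.

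Retnla (also RELMα or FIZZ1), Chil3 (Ym1) and Chil4 (Ym2) are textbook genes of mouse macrophages activated by IL-4 or IL-13, which act through the IL-4 receptor and the transcription factor STAT6. Retnla encodes a small secreted protein of the resistin family. Chil3 and Chil4 encode secreted chitinase-like lectins that bind sugars but do not cut chitin. Ear2 and Rnase2a encode secreted ribonucleases of the RNase A family, first known from the granules of mouse eosinophils and also made by some macrophages and monocytes. Alox15 encodes 12/15-lipoxygenase, an enzyme that adds oxygen to polyunsaturated fatty acids and is known from resident peritoneal macrophages, from eosinophils and, in human monocytes, from the response to IL-4.

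The stretches just before the start of these genes are shown because the genes share a level pattern and because IL-4 signalling acts on DNA through STAT6. They come from the RefSeq promoter table (GRCm38.p6), which held 5 of the 6 genes and not Alox15. The bases lie upstream of both the RefSeq and the GENCODE M21 start and run 5′ to 3′ on the strand of the gene. Capitals mark matches, on either strand, to the STAT6-type motif TTCNNNNGAA, to the general STAT motif TTCNNNGAA and to the PU.1 motif AGGAAGT, which reads ACTTCCT on the other strand. The location of each stretch was chr16:48842359-48842550 (plus strand) for Retnla, chr3:106167565-106167814 (minus strand) for Chil3, chr3:106219508-106219729 (minus strand) for Chil4, chr14:44102404-44102653 (plus strand) for Ear2 and chr14:51256113-51256362 (minus strand) for Rnase2a.
Retnla: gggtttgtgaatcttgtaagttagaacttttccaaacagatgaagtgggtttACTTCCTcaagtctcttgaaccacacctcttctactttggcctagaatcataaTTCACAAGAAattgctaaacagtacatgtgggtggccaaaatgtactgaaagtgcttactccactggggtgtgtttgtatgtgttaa
Chil3: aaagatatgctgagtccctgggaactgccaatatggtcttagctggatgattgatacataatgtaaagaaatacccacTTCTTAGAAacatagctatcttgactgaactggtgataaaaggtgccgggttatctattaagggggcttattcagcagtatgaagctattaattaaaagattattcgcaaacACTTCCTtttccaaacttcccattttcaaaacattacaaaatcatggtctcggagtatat
Chil4: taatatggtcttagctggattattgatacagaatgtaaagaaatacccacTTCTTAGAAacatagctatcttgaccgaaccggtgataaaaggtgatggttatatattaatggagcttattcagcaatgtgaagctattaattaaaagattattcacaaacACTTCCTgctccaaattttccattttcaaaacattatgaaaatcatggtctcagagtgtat
Ear2: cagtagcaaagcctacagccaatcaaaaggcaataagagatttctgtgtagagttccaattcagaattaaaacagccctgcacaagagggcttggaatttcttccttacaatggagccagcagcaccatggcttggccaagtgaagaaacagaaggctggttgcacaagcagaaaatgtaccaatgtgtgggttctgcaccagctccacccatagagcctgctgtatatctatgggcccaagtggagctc
Rnase2a: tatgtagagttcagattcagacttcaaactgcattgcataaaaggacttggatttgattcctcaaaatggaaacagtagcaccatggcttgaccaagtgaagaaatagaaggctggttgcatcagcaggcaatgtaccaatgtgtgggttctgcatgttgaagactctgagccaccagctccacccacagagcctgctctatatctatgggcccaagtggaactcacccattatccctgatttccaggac

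Retnla held the STAT6-type motif at positions -145 to -136, counted from the RefSeq start. Chil3 and Chil4 held the general STAT motif at positions -172 to -164 and -200 to -192, with the same letters in both genes. The PU.1 motif was present in Retnla, Chil3 and Chil4, and the marked matches did not overlap. Ear2 and Rnase2a held none of these motifs in the 250 bases searched. Among all 32851 promoter windows of the table, searched over the same 250 bases, 5.85% held the STAT6-type motif, 7.02% the general STAT motif and 7.69% the PU.1 motif. The Chil3 and Chil4 windows were identical at 201 of 221 aligned positions (91%), and those of Ear2 and Rnase2a at 178 of 206 (86.4%), so matches within a pair are not independent. The BMP-type SMAD motif GGCGCC (9.59% of windows) and the AP-1 motif TGANTCA (6.75%) were in none of the 5 windows, the GATA motif AGATAA (9.99%) was in that of Chil3, and TATAAA (12.4%) was in those of Retnla and Chil4. A match is a run of letters and not a measured binding site.

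The libraries held 23058263 to 24967143 counts in genes, and a floor of 3 counts per library came to 0.120 to 0.130 CPM before scaling. CPM are counts per 1000000 counts of the tested genes, scaled with TMM factors, and intervals cover counting error alone. Bmp4 stood at 512 and 182 CPM in MycCaP-BMP4 replicates 1 and 2, against 0.175 and 0.0422 CPM in MycCaP replicates 1 and 2, and all values below follow this order of libraries. The 17 general macrophage genes on the list, among them Adgre1 (F4/80), Csf1r and Lyz2, were detected in every library. Their share of all gene counts was 0.855% and 2.82% in MycCaP-BMP4 macrophages, against 3.57% and 3.36% in MycCaP macrophages. Fewer macrophages in the sorted cells and less RNA per macrophage cannot be told apart in such bulk samples. Of 14075 genes tested, 0 (0%) passed an adjusted p of 0.05 in edgeR's quasi-likelihood test (Benjamini-Hochberg). An unadjusted p under 0.05 was found for 2680 genes, 12.3% of the genes tested being higher and 6.76% lower in MycCaP-BMP4 macrophages. DESeq2 called 1385 genes and limma-voom 0.

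Retnla (ENSMUSG00000061100; chromosome 16, 48842551 to 48844461 on GRCm38, protein-coding) was the most abundant of the 6 genes in each library. It had 189 and 4659 CPM in MycCaP-BMP4 macrophages (5222 and 106042 counts), against 159 and 78.9 CPM in MycCaP macrophages. MycCaP-BMP4 replicate 2 stood far above the other libraries, and MycCaP-BMP4 replicate 1 lay just above MycCaP replicate 1, so the groups did not overlap. The mean was 2424 ± 3160 CPM in MycCaP-BMP4 macrophages and 119 ± 56.8 CPM in MycCaP macrophages (SD, n = 2 each), so the group means differed by less than 1 SD of the MycCaP-BMP4 libraries. Replicate 2 was 24.6-fold above replicate 1 within that pair (95% counting interval, 23.96 to 25.3). The MycCaP pair differed by 2.02-fold.

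Chil3 (ENSMUSG00000040809; chromosome 3, 106147554 to 106167564, protein-coding) had 8.26 and 215 CPM in MycCaP-BMP4 macrophages, against 11.5 and 6.46 CPM in MycCaP macrophages. MycCaP-BMP4 replicate 1 lay between the MycCaP libraries, so the groups overlapped. Replicate 2 was 26.04-fold above replicate 1 (95% counting interval, 22.8 to 29.9). Retnla and Chil3 kept a similar proportion within each group: there were 22.9 and 21.7 Retnla counts per Chil3 count in the MycCaP-BMP4 libraries, against 13.9 and 12.2 in the MycCaP libraries.

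Chil4 (ENSMUSG00000063779; chromosome 3, 106201490 to 106219507, protein-coding) was close to the limit of detection. It had 0 and 7 counts in MycCaP-BMP4 macrophages, against 0 and 0 counts in MycCaP macrophages. The 7 counts are worth 0.308 CPM (95% counting interval, 0.124 to 0.634). This is 2.83-fold the level that the floor of 3 counts would have in MycCaP-BMP4 replicate 1, and it is no lower bound on the gap. The counting interval of replicate 1, from 0 to 0.134 CPM, overlapped that of replicate 2. Chil3 and Chil4 are near copies: their coding sequences were identical at 1141 of 1197 aligned bases (95.3%). Of the 2713 different stretches of 75 bases in annotated Chil4 transcripts, 143 (5.27%) also occurred in another gene, 125 of them in Chil3, so not every read of this locus can be told from one of Chil3.

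The ribonuclease genes lie apart on chromosome 14. Ear2 (ENSMUSG00000072596; 44102654 to 44103534, protein-coding) had 5.50 and 105 CPM in MycCaP-BMP4 macrophages, against 8.31 and 7.68 CPM in MycCaP macrophages. MycCaP-BMP4 replicate 1 was the lowest of the 4 libraries and replicate 2 the highest, 19.1-fold apart (95% counting interval, 16.2 to 22.7). Rnase2a (ENSMUSG00000047222; 51255262 to 51256112, protein-coding) had 3.80 and 126 CPM in MycCaP-BMP4 macrophages, against 1.40 and 3.12 CPM in MycCaP macrophages. Both MycCaP-BMP4 libraries lay above both MycCaP libraries, although replicate 1 exceeded MycCaP replicate 2 by less than the MycCaP pair differed. The gap between the MycCaP-BMP4 libraries was 33.1-fold (95% counting interval, 27.2 to 40.6), the widest of the 6 genes.

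Alox15 (ENSMUSG00000018924; chromosome 11, 70344152 to 70352031, protein-coding) had 1.52 and 28.1 CPM in MycCaP-BMP4 macrophages, against 1.88 and 1.94 CPM in MycCaP macrophages. MycCaP-BMP4 replicate 1 was the lowest of the 4 libraries, and replicate 2 was 18.5-fold above it (95% counting interval, 13.5 to 25.9). The counting intervals of the 3 lower libraries overlapped, from 1.10 to 2.06 CPM in MycCaP-BMP4 replicate 1, against 1.36 to 2.53 and 1.42 to 2.59 CPM in MycCaP macrophages.

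**Figure D1:**
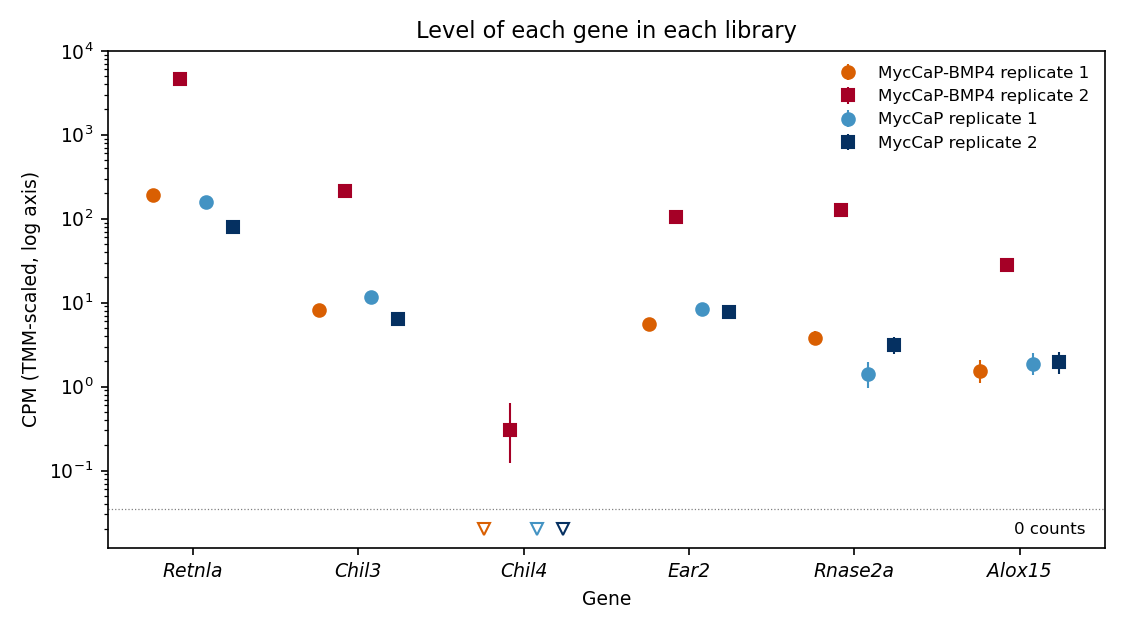
Level of each of the 6 genes in the 4 libraries, in TMM-scaled CPM on a log axis, with 95% counting intervals where they exceed the symbol and open triangles for libraries with 0 counts. MycCaP-BMP4 replicate 2 is the highest library for each gene, from 0.308 CPM for Chil4 to 4659 CPM for Retnla. The other 3 libraries lie well below it except for Chil4. There the counting interval of 0.124 to 0.634 CPM in replicate 2 overlaps those of the libraries with 0 counts, which reach 0.134 to 0.161 CPM.

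Among the 14075 genes tested, 115 (0.817%) were at least 8-fold higher in MycCaP-BMP4 replicate 2 than in replicate 1 and 700 (4.97%) at least 4-fold higher. All 5 tested genes of the group were past both limits, which the way they were chosen already implies. In the MycCaP pair none of the 5 was 4-fold apart, where 1.67% of all genes tested were. For 2 of the 5, Retnla and Rnase2a, both MycCaP-BMP4 libraries lay above both MycCaP libraries, which was so for 28.9% of all genes tested. The fitted log2 fold changes, MycCaP-BMP4 over MycCaP, were 4.35 for Retnla, 3.63 for Chil3, 2.79 for Ear2, 4.83 for Rnase2a and 2.95 for Alox15, where the median of all genes was -0.03. They rest on MycCaP-BMP4 replicate 2: without that library they were 0.69, -0.09, -0.51, 0.78 and -0.30 for the same genes in turn. Without MycCaP-BMP4 replicate 1 they were 5.29, 4.58, 3.71, 5.79 and 3.87.

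**Figure D2:**
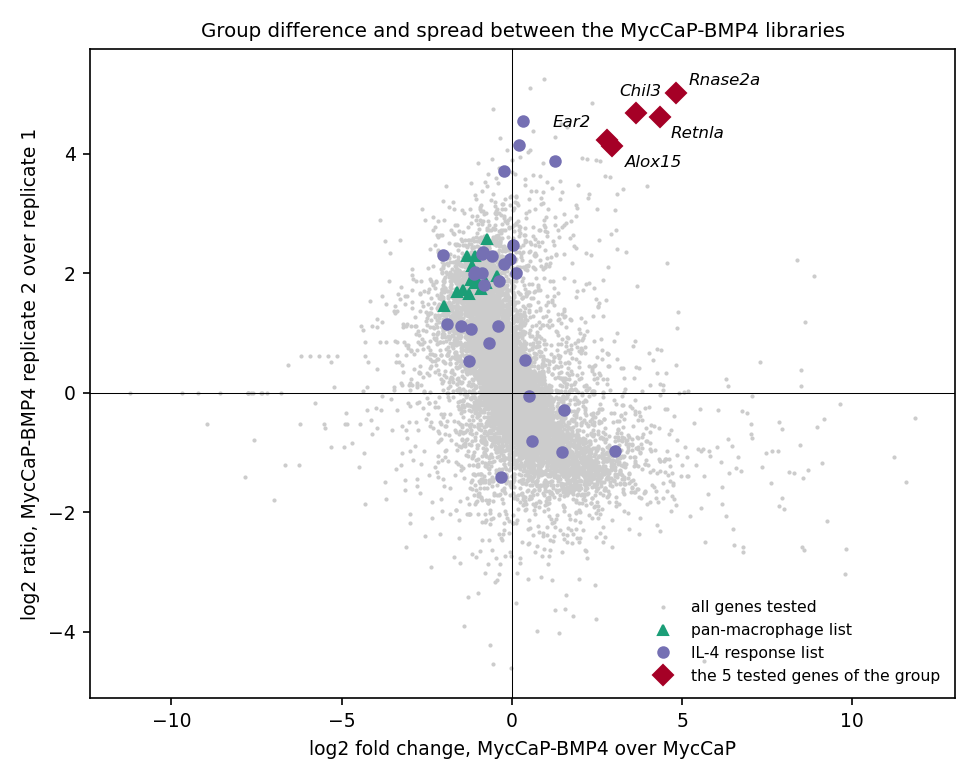
Each point is 1 of 14075 tested genes, with the fitted log2 fold change of MycCaP-BMP4 over MycCaP on the x axis and the log2 ratio of MycCaP-BMP4 replicate 2 over replicate 1 on the y axis. The 5 tested genes of the group sit at the upper right, with y values of 4.13 to 5.02, while the general macrophage genes have a median y of 1.88 and the IL-4 response genes 1.94.

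Levels per length order the genes differently from counts, since Chil3 and Alox15 have longer transcripts. In MycCaP-BMP4 replicate 2 the level was 7777 CPM per kb of exon for Retnla, 182 for Rnase2a, 146 for Ear2, 132 for Chil3, 11.4 for Alox15 and 0.109 for Chil4. In MycCaP replicates 1 and 2 the level of Retnla was 266 and 132 CPM per kb and that of Ear2 was 11.6 and 10.7 CPM per kb. Chil3, at 7.05 and 3.96 CPM per kb, and Rnase2a, at 2.03 and 4.53 CPM per kb, overlapped there, and Alox15 followed at 0.767 and 0.791 CPM per kb.

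The share of macrophage gene counts differed between the MycCaP-BMP4 libraries, so the genes were also set against the summed counts of the 17 general macrophage genes. On that scale Retnla had 25.1 and 163 counts per 1000 macrophage gene counts in MycCaP-BMP4 macrophages, against 4.08 and 2.28 in MycCaP macrophages. Chil3 had 1.10 and 7.53, against 0.295 and 0.187. Ear2 had 0.731 and 3.68, against 0.213 and 0.222. In each of the 5 genes detected in all libraries, both MycCaP-BMP4 libraries lay above both MycCaP libraries on this scale, as they did for 64.5% of all genes tested. Rnase2a had 0.505 and 4.40, against 0.0359 and 0.0904, and Alox15 had 0.202 and 0.983, against 0.0482 and 0.0562. The gap between the MycCaP-BMP4 replicates narrowed to between 4.87-fold (Alox15) and 8.72-fold (Rnase2a). The change of scale divides this gap by the same factor for every gene, so the narrowing is no separate result for any of the 5 genes. Replicate 2 was still the higher for each of them.

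**Figure D3:**
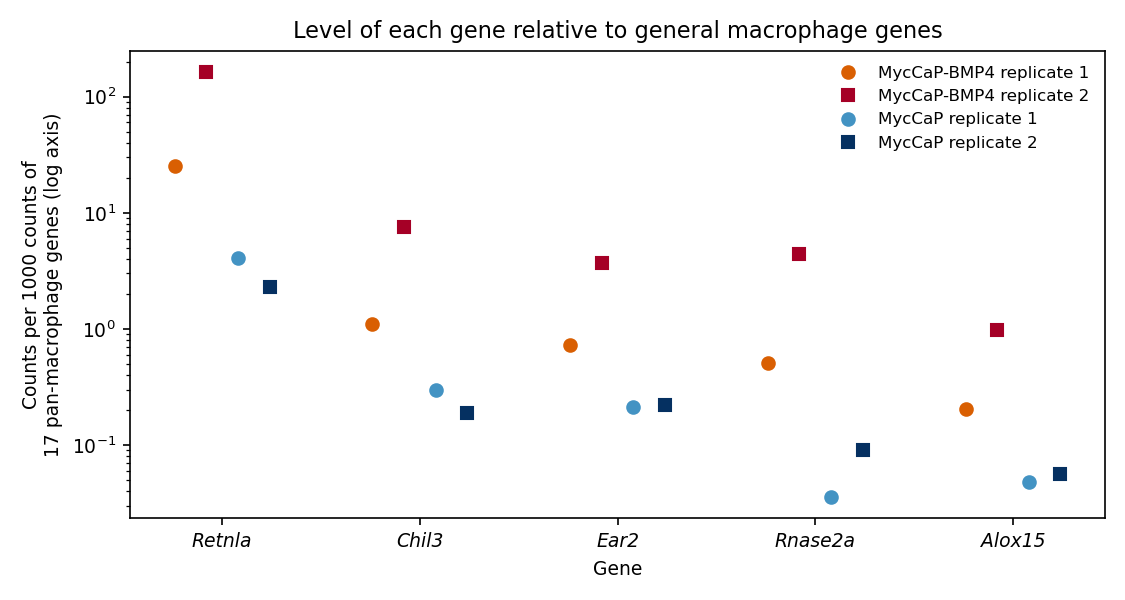
Counts of the 5 genes detected in all libraries per 1000 counts of 17 general macrophage genes, on a log axis. Both MycCaP-BMP4 libraries lie above both MycCaP libraries for each gene, with replicate 2 the highest at 163 for Retnla and 0.983 for Alox15.

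The close relatives of these genes did not all share the pattern. Retnlg, a resistin-family gene that starts 30070 bases downstream of Retnla, had 2.39 and 14.98 CPM in MycCaP-BMP4 macrophages, against 3.81 and 2.87 CPM in MycCaP macrophages, so that MycCaP-BMP4 replicate 2 was the highest library and replicate 1 the lowest. Retn, which encodes resistin, had 0 and 3 counts against 0 and 0, and Retnlb had no count in any library. Of the chitinase family, Chil1 had 0.905 and 1.49 CPM in MycCaP-BMP4 macrophages, against 0.919 and 1.14 CPM in MycCaP macrophages. Ctbs and Chid1, which encode a lysosomal chitobiase and a chitinase-domain protein, had 14.2 and 25.2 CPM against 24.5 and 35.8 CPM, and 75.6 and 56.9 CPM against 61.6 and 62.4 CPM. Chitinase genes proper, Chit1 and Chia1, had at most 1 count in a library.

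Genes of the RNase A family differed in their levels. Ear10 had 0.362 and 5.45 CPM in MycCaP-BMP4 macrophages, against 0.219 and 0.633 CPM in MycCaP macrophages, and Ear1 had 2 and 81 counts against 8 and 6 counts. Both are near copies of Ear2, with coding sequences identical at 97% and 95.7% of aligned bases, and 151 of the 645 different 75-base stretches of Ear2 transcripts (23.4%) also occurred in another gene, 119 of them in Ear10 and 53 in Ear1. How reads were divided among these genes is therefore uncertain. Rnase2a shared no such stretch with another gene, nor did Retnla or Alox15. Rnase2b, with a coding sequence identical to that of Rnase2a at 83.8% of aligned bases, had 0 and 1 counts against 0 and 0. Ear14 had no count in any library. Rnase4, an abundant secreted ribonuclease gene, had 65.5 and 212 CPM in MycCaP-BMP4 macrophages, against 229 and 286 CPM in MycCaP macrophages. Rnase6, a ribonuclease gene of monocytes and macrophages, had 1.70 and 4.66 CPM against 11.6 and 9.67 CPM, and Ang (angiogenin) had 1.92 and 6.85 CPM against 8.31 and 7.26 CPM. These 3 genes were lower in both MycCaP-BMP4 libraries, as were 29.7% of all genes tested, but per macrophage gene count only Rnase6 was. On that scale Rnase4 had 8.71 and 7.42 counts per 1000 in MycCaP-BMP4 macrophages, against 5.85 and 8.28 in MycCaP macrophages, Ang had 0.255 and 0.240 against 0.213 and 0.210, and Rnase6 had 0.226 and 0.163 against 0.298 and 0.280. None of these had the gap between the MycCaP-BMP4 replicates that Ear2 and Rnase2a kept on the same scale.

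Among the lipoxygenases, Alox5, which starts leukotriene synthesis, had 20.8 and 59.8 CPM in MycCaP-BMP4 macrophages, against 63.2 and 57.3 CPM in MycCaP macrophages, and per 1000 macrophage gene counts 2.76 and 2.10 against 1.62 and 1.66. Aloxe3, known as a lipoxygenase of the skin barrier, went the other way within the MycCaP-BMP4 pair, at 18 and 9.62 CPM against 0.0875 and 0.211 CPM. Alox12 and Alox8 had at most 3 counts in a library. Of the 13 other oxylipin enzymes and partners on the list, 7 were higher in MycCaP-BMP4 replicate 2 than in replicate 1 (49% of all genes tested). Only 1 was higher by at least 4-fold (4.97% of all genes tested), the thromboxane synthase gene Tbxas1 (38.5 and 191 CPM against 185 and 154 CPM). Per 1000 macrophage gene counts Tbxas1 had 5.11 and 6.685 against 4.73 and 4.44. The median log2 fold change of that list was -0.23, beside -0.03 for all genes. Scaled on the macrophage genes it was 1.37, beside 1.57 for all genes. Alox5ap, whose product presents arachidonic acid to 5-lipoxygenase, had 78.2 and 281 CPM against 426 and 360 CPM. Ptges, which encodes a prostaglandin E synthase, had 82.5 and 37.2 CPM against 22.2 and 27.4 CPM. None of the 13 passed the test.

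**Figure D4:**
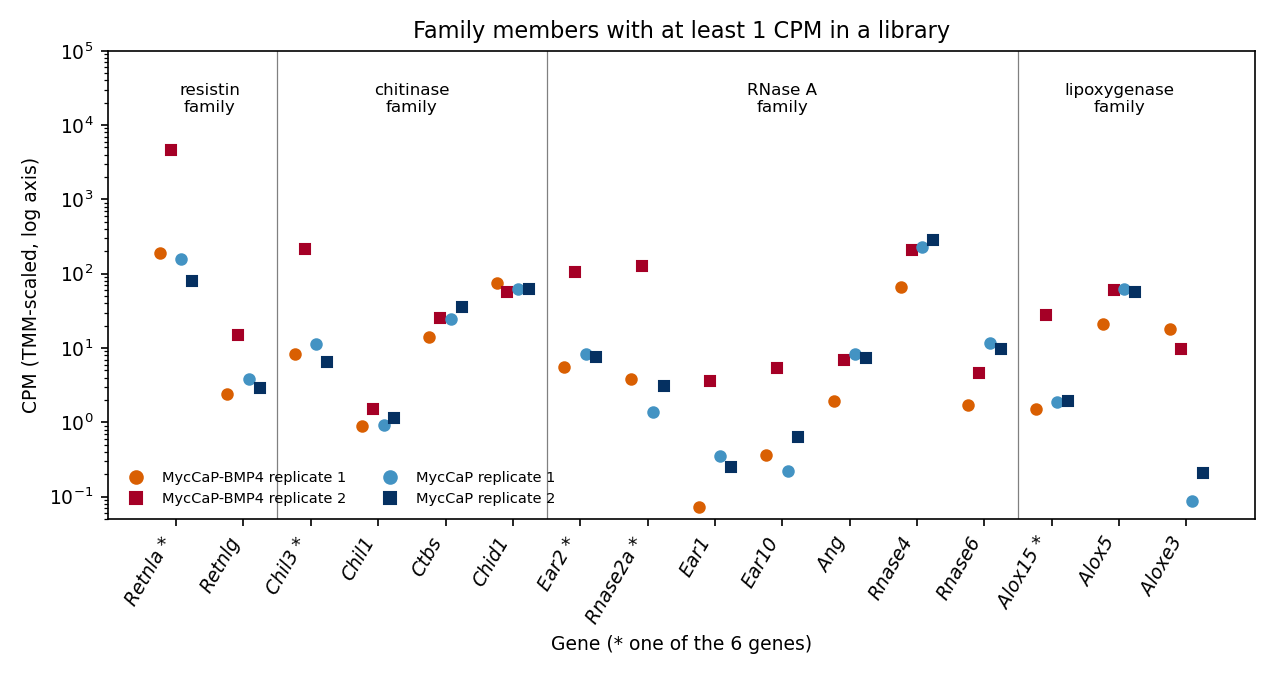
TMM-scaled CPM on a log axis for every gene of the resistin, chitinase, RNase A and lipoxygenase families with at least 1 CPM in a library, with stars on genes of the group. MycCaP-BMP4 replicate 2 stands apart for the starred genes, Retnlg, Ear1 and Ear10, whereas Chid1, Rnase4 and Alox5 do not have it far above the rest.

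Neighbours on the chromosome were examined within 200 kb of each gene. Of 3 tested neighbours of Retnla, Retnlg was at least 4-fold higher in MycCaP-BMP4 replicate 2 than in replicate 1, while Dzip3 (log2 ratio -0.68) and Cip2a (-0.18) were not. Around Chil3 none of 4 tested neighbours reached this limit, and the pseudogene Gm4540 had a log2 ratio of -3.73, where 1.19% of all genes tested were at least 4-fold lower in replicate 2. Both tested neighbours of Ear2 did: Ear10, and the pseudogene Ear-ps2, with 37 and 931 counts in MycCaP-BMP4 macrophages, against 119 and 72 counts in MycCaP macrophages. Ear-ps2 shared 38 stretches of 75 bases with Ear2. The 3 tested neighbours of Rnase2a were Rnase4, Ang and Rnase6, with log2 ratios of 1.41 to 1.79. Of 16 tested neighbours of Alox15, 1 reached 4-fold, the lectin gene Clec10a, which is also on the IL-4 response list (103 and 508 CPM against 546 and 370 CPM).

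**Figure D5:**
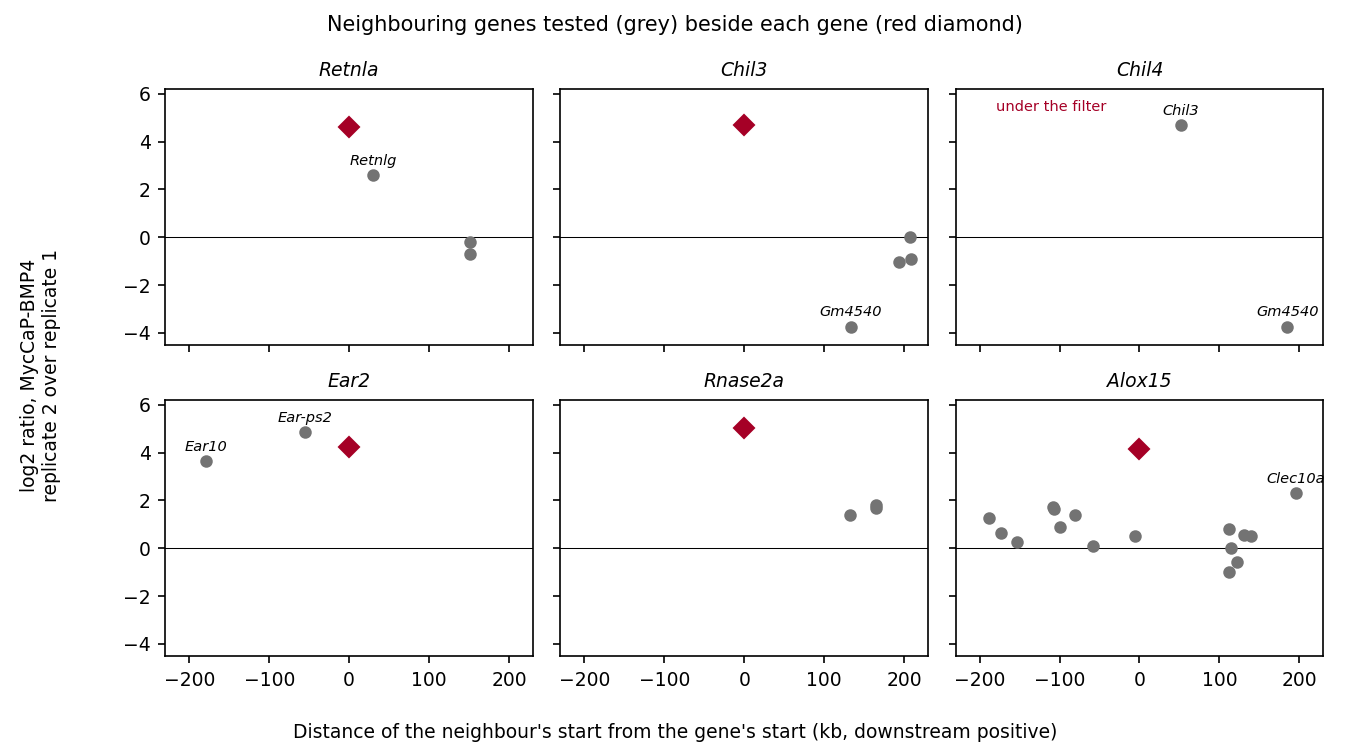
Log2 ratio of MycCaP-BMP4 replicate 2 over replicate 1 for tested genes within 200 kb, by distance in kb between start sites, with 1 panel per gene and the gene itself as a red diamond. Outside Retnlg, Chil3, Ear10, Ear-ps2 and Clec10a, no neighbour reached a log2 ratio of 2.

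Other genes of the IL-4 response were compared on a list of 30 macrophage genes, all of which were tested. In 24 of the 30 the level was higher in MycCaP-BMP4 replicate 2 than in replicate 1 (49% of all genes tested), and in 14 at least 4-fold higher (4.97%). The general macrophage genes were higher there too, 17 of 17, with a median log2 ratio of 1.88 beside 1.94 for the IL-4 list and -0.02 for all genes. The largest gaps were in Slc7a2, a transporter of arginine (2.82 and 67.7 CPM in MycCaP-BMP4 macrophages, against 25.9 and 30.4 CPM in MycCaP macrophages), and Pdcd1lg2, which encodes the checkpoint ligand PD-L2 (0.579 and 11.6 CPM against 5.38 and 5.24 CPM). The chemokine gene Ccl24 had 5.98 and 89.5 CPM against 25.1 and 14.4 CPM. Arg1, which encodes arginase, had 81.4 and 1074 CPM against 744 and 623 CPM. In these 4 genes MycCaP-BMP4 replicate 1 was the lowest library and replicate 2 the highest, the order seen for Ear2 and Alox15. The log2 ratio of Slc7a2 between the MycCaP-BMP4 replicates, 4.54, lay within the 4.13 to 5.02 of the 5 tested genes, but on a log scale its levels in MycCaP macrophages were nearer to replicate 2, while those of the 5 genes were nearer to replicate 1. The interleukin-1 receptor antagonist gene Il1rn (134 and 745 CPM against 423 and 441 CPM) had the same order, and the lectin gene Mgl2 had 50.3 and 258 CPM against 258 and 293 CPM.

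Relative to MycCaP, the IL-4 list did not move one way. The median log2 fold change was -0.35, beside -0.03 for all genes, with 5 genes higher and 10 lower in both MycCaP-BMP4 libraries (28.9% and 29.7% of all genes tested), and no gene passed the test. Without MycCaP-BMP4 replicate 1 the median turned to 0.14, with 14 genes above and 11 below both MycCaP libraries. Without replicate 2 it was -1.68, with 5 above and 23 below. Of the 17 general macrophage genes, 1 lay above and 14 below without replicate 1, and 0 above and 17 below without replicate 2. The 28.9% and 29.7% hold for both libraries together, and no share of all genes was counted for 1 library alone. Scaled on the macrophage genes, which moved the median of all genes to 1.57, the median of the list was 0.71, and per macrophage gene count 14 of its genes were higher and 3 lower in both MycCaP-BMP4 libraries, where 64.5% of all genes tested were higher. The 4 genes with the smallest p on the list were Itgb3 (114 and 58.2 CPM against 9.80 and 11.3 CPM), Fabp4 (224 and 113 CPM against 62.5 and 58.4 CPM), Fn1 (5403 and 4417 CPM against 1414 and 1989 CPM) and Batf3 (3.26 and 4.75 CPM against 10.8 and 8.28 CPM). In the first 3 of these, which encode an integrin, a fatty acid binding protein and fibronectin, replicate 1 was the higher MycCaP-BMP4 library, opposite to Retnla.

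Il4, Il13 and Il5, the type 2 cytokine genes themselves, were counted rarely in each library. Il4 had 25 and 24 counts in MycCaP-BMP4 macrophages, against 26 and 20 counts in MycCaP macrophages, Il13 had 2 and 3 counts against 4 and 0, and Il5 had 2 and 1 against 0 and 0. The receptor genes Il4ra (71.2 and 329 CPM against 502 and 431 CPM) and Il13ra1 (12.2 and 36.0 CPM against 71.8 and 79.0 CPM) were lower in both MycCaP-BMP4 libraries, also per macrophage gene count (9.45 and 11.5 against 12.9 and 12.5 per 1000 for Il4ra). Stat6 had 79.7 and 158 CPM against 168 and 177 CPM, and per 1000 macrophage gene counts 10.6 and 5.53 against 4.30 and 5.13. Il33, an alarmin gene of epithelium and stroma, had 11.6 and 6.59 CPM against 0.525 and 0.633 CPM. Its receptor gene Il1rl1 had 3.66 and 15.95 CPM against 5.12 and 7.64 CPM. Tslp, another alarmin gene, had 0.869 and 3.52 CPM against 1.49 and 1.18 CPM. In both, replicate 1 was the lowest library and replicate 2 the highest, as for Ear2. Csf2, which encodes the growth factor GM-CSF, had 0.434 and 1.54 CPM against 2.67 and 3.12 CPM. Of the 12 tested genes of this list none passed, and 1 was higher and 7 lower in both MycCaP-BMP4 libraries (28.9% and 29.7% of all genes tested). Per macrophage gene count 8 of the 12 were higher in both, a share close to the 64.5% of all genes tested.

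Genes of other cells that can carry Ear2, Rnase2a, Alox15, Chil3 or Retnla were measured beside them. Of 11 eosinophil markers, Prg2 and Prg3 (granule proteins) had no count in any library, and Epx (eosinophil peroxidase), Il5ra and Ptgdr2 had 1 count each, all in MycCaP-BMP4 replicate 2. The summed level of the 11, per 1000000 gene counts without TMM factors as for all sums here, was 2.59 and 15.1 CPM in MycCaP-BMP4 macrophages, against 8.97 and 8.57 CPM in MycCaP macrophages, and without Ear1, which shares reads with Ear2, it was 2.51 and 11.5 CPM against 8.65 and 8.33 CPM. Ccr3, an eotaxin receptor gene, had the most counts of the 11 in each library, at 1.45 and 6.77 CPM against 7.26 and 6.80 CPM. Siglecf had 0.109 and 1.45 CPM against 1.05 and 1.14 CPM. Cebpe, a granulocyte transcription factor gene, had 0.217 and 2.99 CPM against 1.09 and 0.591 CPM, and Ear6 had 0 and 6 counts against 0 and 0. Gata1, also on the list, went the other way within the MycCaP-BMP4 pair, with 12 and 2 counts against 1 and 1. All 3 genes of the list that were tested, Siglecf, Ccr3 and Cebpe, were at least 4-fold higher in MycCaP-BMP4 replicate 2 than in replicate 1 (4.97% of all genes tested). Among the 17 general macrophage genes, 4 reached this limit too. Their median log2 ratio was 1.88, beside 2.16 (Ccr3) to 3.36 (Cebpe) for the 3 genes. The part of macrophage content in the gap of these 3 genes was not tested.

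Of 8 genes known from serosal macrophages, all tested, 5 were at least 4-fold higher in MycCaP-BMP4 replicate 2 than in replicate 1 (4.97% of all genes tested), with a summed level of 62.9 and 246 CPM in MycCaP-BMP4 macrophages, against 124 and 113 CPM in MycCaP macrophages. They were F5 (coagulation factor V; 1.77 and 22.9 CPM against 6.26 and 7.56 CPM), Prg4, Cxcl13, Saa3 and Selp (0.543 and 9.45 CPM against 0.963 and 1.39 CPM). Of these, Prg4 was highest in MycCaP replicate 2 (3.08 and 38.0 CPM against 13.4 and 43.5 CPM). Gata6, the transcription factor that defines peritoneal macrophages, was higher in replicate 1 than in replicate 2, at 11.4 and 3.30 CPM against 1.09 and 1.77 CPM. So was Garnl3 (18.1 and 9.45 CPM against 2.19 and 4.31 CPM). Icam2 was lower in both MycCaP-BMP4 libraries (3.77 and 8.17 CPM against 8.71 and 11.7 CPM). Of 10 alveolar macrophage genes 6 were tested and 5 were at least 4-fold higher in replicate 2 (4.97% of all genes tested), with a summed level of 55.4 and 257 CPM against 164 and 178 CPM. Atp6v0d2, a proton pump subunit gene, held the largest part of it in replicate 2 (25.5 and 128 CPM against 28.3 and 25.04 CPM). The scavenger receptor gene Marco had 2.39 and 48.1 CPM against 13.5 and 7.52 CPM, while Itgax (11.6 and 55.7 CPM against 119 and 132 CPM) and Plet1 (1.45 and 1.58 CPM against 2.54 and 2.36 CPM) were lower in both MycCaP-BMP4 libraries. Car4 had 16 and 1 counts against 2 and 3 counts, and Krt79 had 20 and 4 counts against 1 and 1. Both were highest in MycCaP-BMP4 replicate 1, and within the MycCaP-BMP4 pair they went opposite to the 5 alveolar genes above. Of those 5, Siglecf is also on the eosinophil list and Pparg on the IL-4 response list, so these lists share genes. Fabp1 had 2 and 7 counts against 1 and 0, and Cidec had none. Between the MycCaP-BMP4 replicates the median log2 ratio was 3.045 for the serosal and 2.29 for the alveolar list. It was 1.88 for the general macrophage genes. The part of macrophage content in these gaps was not tested.

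The remaining cell type lists were uneven within themselves, and a few genes carry most of their sums. Of all genes tested, 28.9% were higher and 29.7% lower in both MycCaP-BMP4 libraries, and 49% were higher in replicate 2 than in replicate 1. Of the 17 general macrophage genes, 14 were lower in both and all 17 were higher in replicate 2 than in replicate 1. The counts below stand beside these shares. Of the 10 genes of Ly6C-low monocytes, which express Ear2, 8 were lower in both MycCaP-BMP4 libraries, such as Ace (2.50 and 3.95 CPM in MycCaP-BMP4 macrophages, against 22.6 and 24.3 CPM in MycCaP macrophages), and 1, Eno3, was higher. Their sum of 1339 and 1289 CPM against 1702 and 1766 CPM was mostly Nr4a1. Of the 7 genes of Ly6C-high monocytes, 5 were lower in both MycCaP-BMP4 libraries and 4 were higher in replicate 2 than in replicate 1, and F13a1 made up most of the sum of 591 and 1899 CPM against 2190 and 2150 CPM. All 8 dendritic cell genes were higher in replicate 2 than in replicate 1, and 7 were lower in both MycCaP-BMP4 libraries (17.1 and 40.8 CPM against 55.5 and 74.8 CPM in sum). The 13 neutrophil genes, with Ly6g at 0 throughout, summed to 75.9 and 76.5 CPM against 84.0 and 90.1 CPM but went both ways. S100a8 (11.6 and 1.67 CPM against 3.76 and 3.50 CPM) and S100a9 (21.6 and 2.46 CPM against 5.99 and 7.35 CPM) were lowest in replicate 2, while Retnlg and Mpo (0.652 and 4.22 CPM against 0.0875 and 0.718 CPM) were highest there. Of the 10 mast cell and basophil genes, 4 of the 6 tested, the protease genes Mcpt4, Cpa3, Cma1 and Tpsb2, lay above the MycCaP range in both MycCaP-BMP4 libraries. Kit was lower in both (1.85 and 2.28 CPM against 3.94 and 4.90 CPM), and Gata2 overlapped (1.05 and 0.352 CPM against 0.7 and 0.464 CPM). Fcer1a had 4 and 2 counts against 1 and 9, and Ms4a2 had 0 and 3 against 4 and 1. The list summed to 25.5 and 40.0 CPM against 8.57 and 18.99 CPM. The 9 T cell and ILC2 genes summed to 157 and 120 CPM against 101 and 107 CPM, with Gata3 the largest part of it in MycCaP-BMP4 replicate 1 (99.2 and 34.9 CPM against 10.02 and 11.8 CPM). Cd3d had 0.0724 and 0.703 CPM against 6.52 and 2.70 CPM. Of the 9 genes, 3 lay above and 3 below the MycCaP range in both MycCaP-BMP4 libraries, close to the shares of all genes tested. Among 8 tested tumour epithelial genes, 6 lay above that range in both, and 7 were lower in replicate 2 than in replicate 1, opposite to the 6 genes. All 15 of that list summed to 1591 and 580 CPM against 92.0 and 106 CPM. The 7 fibroblast genes summed to 297 and 283 CPM against 136 and 379 CPM, and the 7 genes of adipocytes, which also make Retnla, to at most 0.370 CPM. The part of any of these cells in the levels of the 6 genes was not tested.

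The 10 other genes whose profiles over the 4 libraries lay nearest to the mean profile of the 5 tested genes were Gm12396, Fam71a, Gm9803, Myrf, Serpinb2, Lsmem1, 9430025C20Rik, Ap3s1-ps1, Ear10 and Aldh1a2. Likeness was the Euclidean distance between log2 CPM values centred on each gene's mean over the 4 libraries, and these 10 lay at 0.872 to 1.36. The genes of the group themselves lay at 0.498 (Chil3) to 1.34 (Rnase2a). Each of them is part of that mean, which shortens its distance, so the 2 ranges are not on equal terms. Gm12396, the nearest, had 1.09 and 14.2 CPM in MycCaP-BMP4 macrophages, against 1.23 and 0.844 CPM in MycCaP macrophages. Serpinb2, which encodes a plasminogen activator inhibitor, had 1.70 and 26.3 CPM against 1.53 and 3.08 CPM, and Aldh1a2, an enzyme gene of retinoic acid synthesis, had 3.95 and 38.5 CPM against 4.03 and 5.02 CPM. Within the group, Ear2 and Alox15 had the most alike profiles, at a distance of 0.212, and Ear2 and Rnase2a the least alike, at 2.03, although they belong to 1 gene family. All these distances are over 4 libraries, of which 1 sets most of the profile.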

How the data were processed

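Each library has 1 deposited file of raw counts per Ensembl gene. HTSeq, STAR 2.6.0b, RSEM, Bowtie2 2.2.3 and the build mm10 (GRCm38) are named per the submitters' processing notes. The role of each tool, the annotation used and whether counting considered strand were not given in the sources used here. Per the labels' protocols, reads came in pairs from strand-specific libraries of RNA with an integrity number above 7. Symbols were found for 37607 of 39179 identifiers, and coordinates are those of GENCODE M21. The 5 summary lines of each file, which name no gene, were left out: reads outside genes made up 3.37% to 6.03% of a file, ambiguous reads 2.70% to 2.91% and multiply aligned reads 8.01% to 10.6%.

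Counts were filtered with filterByExpr, which left 14075 genes, scaled with TMM factors (0.916 to 1.14) and fitted with edgeR 4.0.16 (quasi-likelihood F test, two-sided, Benjamini-Hochberg adjustment over all genes, no covariate). Log2 CPM used a prior count of 2. Summed levels of marker lists are per 1000000 gene counts without TMM factors. Alternatives were DESeq2 1.42.0, limma-voom (limma 3.58.1), other scalings and filters, a replicate block and each library left out. Identities used global alignments (Biopython 1.88) of the longest annotated coding sequences.

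The 6 genes and the 20 lists were chosen with earlier results of these data known. The text draws its names from the 6 genes, their families at 1 CPM or more, list genes with the widest gap between the MycCaP-BMP4 libraries or the smallest p, first markers of each cell list, neighbours within 200 kb and the 10 nearest profiles. Stat6, Garnl3, Saa3, Selp, Cebpe, Itgax, Atp6v0d2, Pparg, Eno3, F13a1, Kit, Gata2 and genes with few counts named beside these were added after their values were seen.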

Additional observations from a re-analysis of the deposited data

How the results depend on the processing

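No gene passed the test across all genes in the edgeR fit. The count was also 0 with DESeq2 size factors, with limma-voom and with a filter of 1 CPM in 2 libraries, but 65 with library size alone, 1009 with scaling on the general macrophage genes (986 higher, 23 lower), 1109 with no filter on low counts and 1385 with DESeq2's own test. Leaving out 1 library gave 0 to 5753 calls: 5753 without MycCaP-BMP4 replicate 2, 1043 without MycCaP-BMP4 replicate 1 and 0 without either MycCaP library. With the replicate number as a block the count was 2. The labels do not say that the numbers pair the samples, and deviations of same-numbered libraries had a correlation of -0.13 across genes. Crossing the numbers of 1 group, an alternative added after seeing the data, gave 689, and the counts of list genes without 1 MycCaP-BMP4 library were added then too.

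With 1 library left out, the log2 fold change ran from 0.69 to 5.29 for Retnla, -0.094 to 4.58 for Chil3, -0.51 to 3.71 for Ear2, 0.78 to 5.79 for Rnase2a and -0.30 to 3.87 for Alox15, each lowest without MycCaP-BMP4 replicate 2. The log2 ratio of MycCaP-BMP4 replicate 2 over replicate 1 was 4.42 for Retnla and 4.49 for Chil3 with library size alone. Scaled on the macrophage genes it was 2.70 for Retnla, 2.78 for Chil3, 2.33 for Ear2, 3.12 for Rnase2a and 2.27 for Alox15. List medians with 1 library left out ran from -1.68 to 0.14 (IL-4 response), -1.002 to -0.13 (type 2 cytokines and receptors), -2.36 to -0.45 (general macrophage genes), -0.30 to -0.033 (oxylipin enzymes) and -2.25 to 1.42 (eosinophil genes, 3 tested with all libraries and a median of -0.51). Scaled on the macrophage genes they were 0.71, 0.87, -0.088, 1.37 and 0.18 in that order. The oxylipin median was -0.053 with library size alone and the eosinophil median 2.31 with no filter. The cause was not tested beyond each alternative's own construction. Chil4 fell under the filter and has no fitted value. Where a group was left with 1 library, that library was assumed to vary like those of the other group.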
